A study of Mus musculus with 24 samples.

Results

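Livers given AKT and NRas plasmids were compared with livers given AKT and c-Met plasmids, in mice that received saline and no chemical injury. The comparison takes every library labelled SB/AKT/NRas + saline (n = 4, NRas livers below) and every library labelled SB/AKT/c-Met + saline (n = 3, c-Met livers), so 7 of the 24 livers sequenced, and it covers all genes. All mice were male C57BL/6JAusb animals of 14 to 15 weeks. Each received a hydrodynamic tail vein injection, a rapid large-volume injection that drives plasmid DNA into part of the hepatocytes. The injection held 0.8 µg of a Sleeping Beauty (SB) transposase plasmid, 10 µg of a plasmid for myristoylated AKT and 10 µg of a plasmid for either NRas (the V12 form) or c-Met, and 8 to 10 days later 10 to 11 intraperitoneal saline injections followed over 5 to 6 weeks. Livers given the SB plasmid alone and saline (SB + saline, n = 4, SB livers) supply the background level. Livers of mice given the same plasmids and thioacetamide (TAA), a hepatotoxin injected at 100 mg/kg once and 200 mg/kg thereafter (SB/AKT/NRas + TAA, n = 5, and SB/AKT/c-Met + TAA, n = 4), are used where the same contrast is read in injured livers.

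Sleeping Beauty inserts the plasmid cassettes into the genome of the cells that took them up, so both models start from scattered hepatocytes that carry active AKT with a second driver. NRAS is a small GTPase that in its V12 form stays bound to GTP and keeps the RAF-MEK-ERK kinase cascade switched on, and ERK output includes growth factor ligands, cyclin D1 and feedback phosphatases. MET is the receptor tyrosine kinase for hepatocyte growth factor and signals through RAS as well as through PI3 kinase, so the models share AKT and differ in the level at which the second signal enters.

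Each library was made from a piece of snap-frozen liver that could hold tumor and non-tumor tissue in any mixture, and in such bulk samples fewer cells of a type and less RNA per cell cannot be told apart. The 7 livers had 2197933 to 2998476 counted molecules and 16279 to 18411 genes with at least 1 count. The TMM scaling factor was 0.846 in NRas liver 1, 1.16 to 1.19 in NRas livers 2 to 4 and 0.939 to 0.983 in the c-Met livers. The share of alignment records assigned to a gene was 13.75%, 18.87%, 23.94% and 17.74% in NRas livers 1 to 4. In the c-Met livers it was 15.91% to 20.63%, so NRas liver 1 had the lowest share of the 7 and NRas liver 3 the highest. The part of this in the results was not tested. Levels are given as CPM, the count relative to the scaled library total. All 14 hepatocyte markers looked up were detected, and their summed level was 148400, 85570, 94950 and 80540 CPM in NRas livers 1 to 4, against 109300, 111100 and 122900 CPM in c-Met livers 1 to 3 and 153600 to 183000 CPM in the SB livers.

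The human transcripts made from the plasmids came first, because they check the labels. Human NRAS had 12.3, 55.3, 218 and 66.1 CPM in NRas livers 1 to 4, against 0, 0.342 and 0.75 CPM in c-Met livers 1 to 3. All 4 NRas livers stood above every c-Met liver, and NRas liver 1 was the lowest of its group while NRas liver 3 was the highest. The pooled level was 255-fold (95% counting interval 87 to 1240) higher in the NRas livers, from 1158 counts in the NRas livers and 3 counts in the c-Met livers. Human MET had 0 counts in all 4 NRas livers, against 5.56, 5.13 and 3.75 CPM in the c-Met livers, 37 counts in all. With a floor of 3 counts over the group, human MET was at least 18.7-fold lower in the NRas livers. Both transcripts passed the test across all genes (edgeR quasi-likelihood test with Benjamini-Hochberg adjustment, adjusted p = 0.00142 for NRAS and 0.0438 for MET).

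**Figure D1:**
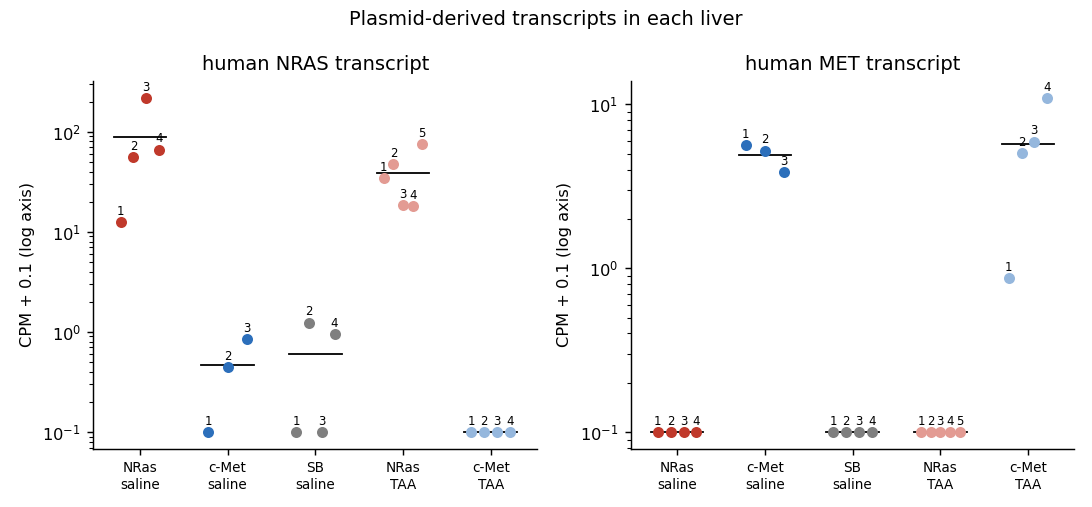
Human NRAS (left) and human MET (right) in CPM plus 0.1 on a log axis, 1 point a liver with its replicate number, group means as lines. NRas + saline livers sit between 12.3 and 218 CPM for human NRAS, with liver 1 lowest, and all 4 are at 0 for human MET.

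The mouse genes of the same proteins did not separate the models. Mouse Nras (chromosome 3, 103058285 to 103067914, GRCm38) had 42.2, 48.4, 59.1 and 41.98 CPM in the NRas livers and 32.4, 64.2 and 41.2 CPM in the c-Met livers, and mouse Met (chromosome 6, 17463800 to 17573980) had 32.1, 25.1, 21.6 and 29.6 CPM in the NRas livers and 34.3, 21.2 and 28.5 CPM in the c-Met livers. Both sets of livers overlapped (log2 difference 0.06 ± 0.20 for Nras and -0.05 ± 0.22 for Met, SE), and the sign of either difference turned with the choice of livers. Mouse Akt1 (chromosome 12, 112653821 to 112674884) had 15.8, 33.8, 63.1 and 42.96 CPM in the NRas livers and 23.6, 16.8 and 18 CPM in the c-Met livers. It did not pass the test with all livers (adjusted p = 0.206) and was higher in NRas livers 2 to 4 than in the c-Met livers (log2 fold change 1.26 ± 0.24 (SE), adjusted p = 0.00493). RNA from the AKT plasmid and from the endogenous gene was not told apart here.

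With all 7 livers, 26 of 19381 transcripts passed the threshold used throughout, an adjusted p under 0.05 with a log2 fold change beyond 1 in either direction. Of these, 24 were higher in the NRas livers (0.124% of those tested) and 2 were lower (0.0103%), and besides the human transcripts they comprise 23 mouse genes that rose and 1 that fell. The genes that rose include oncofetal liver proteins (Afp, Gpc3), secreted factors and chemokines (Lcn2, Cxcl1, Cxcl3, Cxcl13, Stc1), surface and junction proteins (Cdh17, Tspan8, Mpdz), the cell cycle inhibitor Cdkn2b and the imprinted RNA Meg3. NRas liver 1 lay nearest to the c-Met livers for 21 of the 23 and within their range for 10, whereas NRas liver 3 was the farthest for 19. The genes were called on the same livers and these positions were not counted over all genes, so they describe the called genes alone. These calls rest on the livers included: leaving out NRas liver 1, 2, 3 or 4 gave 284, 19, 2 or 8 calls, and leaving out c-Met liver 1, 2 or 3 gave 1, 0 or 1 (1966 transcripts had an unadjusted p under 0.05 without c-Met liver 2). Other tools spread as widely, since DESeq2 called 64, limma-voom 1 and a robust dispersion fit 0 (1752 at an unadjusted p under 0.05).

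**Figure D2:**
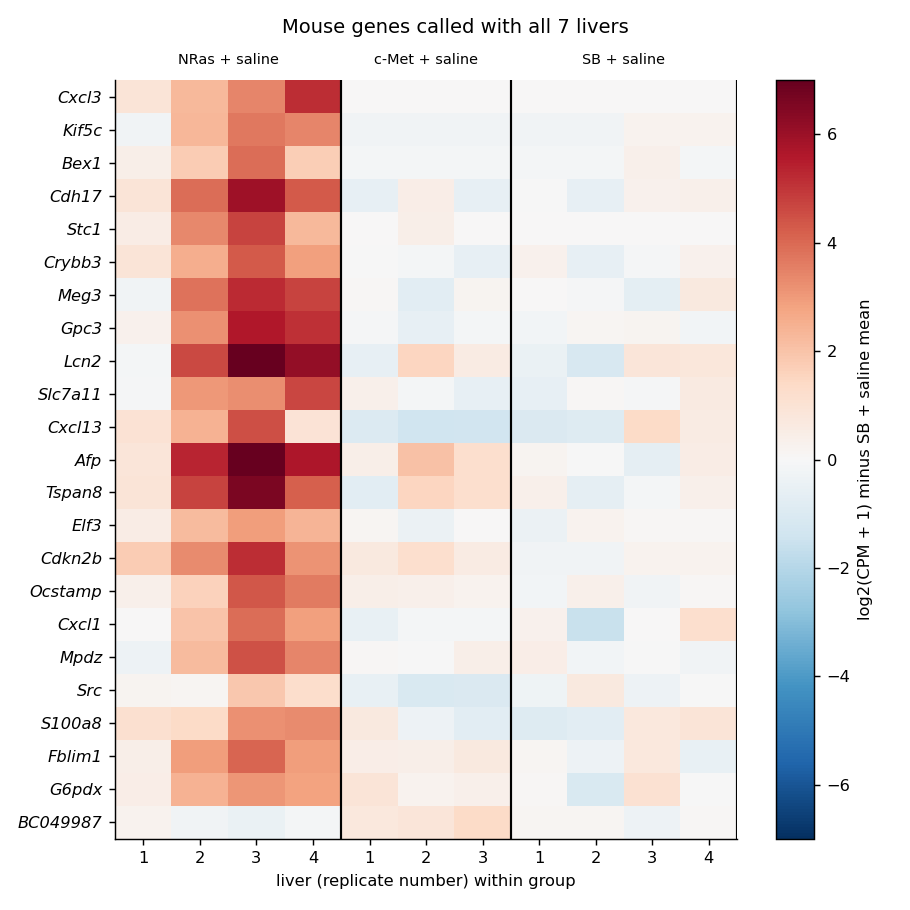
The mouse genes called with all 7 livers, 23 of 24 shown, as log2(CPM + 1) minus the mean of the SB + saline livers, by liver and group, ordered by fitted fold change. NRas livers 2 to 4 are high for most of the upper 22 genes, NRas liver 1 is close to the c-Met and SB livers for most of them, and BC049987, at the bottom, is highest in the c-Met livers.

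Of the oncofetal genes, Afp (chromosome 5, 90490737 to 90508907), which encodes alpha-fetoprotein, the main plasma protein of the fetal liver, had 3.96, 112, 422 and 139.6 CPM in NRas livers 1 to 4, against 2.78, 10.6 and 5.25 CPM in c-Met livers 1 to 3, and 0.802 to 2.997 CPM in the SB livers. NRas livers 2 to 4 were above every other liver, and NRas liver 1 was inside the c-Met range (log2 fold change 4.72 ± 0.85 (SE), adjusted p = 0.0221). Gpc3 (chromosome X, 52272426 to 52613950), encoding glypican-3, a heparan sulfate proteoglycan of fetal liver and liver cancer, had 3.96, 35.5, 193 and 137 CPM in NRas livers 1 to 4, against 2.78, 1.71 and 2.62 CPM in c-Met livers 1 to 3. All 4 NRas livers were above the c-Met livers, although liver 1 only slightly (log2 fold change 5.29 ± 0.80 (SE), adjusted p = 0.0032). Tspan8 (chromosome 10, 115816832 to 115849893), a tetraspanin of epithelial and carcinoma cells, had 3.52, 64.03, 232 and 43.3 CPM in the NRas livers and 0.463, 5.81 and 4.499 CPM in the c-Met livers. Again NRas liver 1 alone fell inside the c-Met range (log2 fold change 4.50 ± 0.91 (SE), adjusted p = 0.0438). Bex1, an X-linked adaptor protein, was at 0 in all c-Met livers, against 0.44, 2.78, 15.1 and 2.604 CPM in the NRas livers, at least 15.4-fold higher with a floor of 3 counts over the c-Met group.

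These genes belong to a list of 25 tested fetal liver and liver cancer markers. With all livers 4 of the 25 were called, each higher. Without NRas liver 1 the number was 12, adding Mest, Akr1b8, H19, Cd24a, Akr1c18, Sox4, Golm1 and Spink1, and 15 had all of NRas livers 2 to 4 above all c-Met livers (9.33% of all transcripts did so). The median log2 fold change of the list without NRas liver 1 was 2.04 (1.98 with genes at 0 in a group set to their floor and 1 gene too low in both groups left out), beside 0.0132 over all genes. H19, an imprinted fetal RNA, had 0.879, 48.02, 13.6 and 31.2 CPM in the NRas livers and 0, 0.342 and 0.75 CPM in the c-Met livers, a pooled ratio of 77-fold (95% counting interval 26.1 to 376) without NRas liver 1. Golm1, a Golgi membrane protein shed in liver disease, had 7.04, 29.9, 72.4 and 57.6 CPM in the NRas livers and 3.704, 20.2 and 5.62 CPM in the c-Met livers (log2 fold change 2.40 ± 0.42 (SE), adjusted p = 0.0025, without NRas liver 1). Both had NRas livers 2 to 4 above the c-Met livers, with the caveat for H19 that the c-Met total was 3 counts.

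Chemokines and other secreted factors formed the second set. Cxcl1 (chromosome 5, 90891241 to 90893115) and Cxcl3 (chromosome 5, 90786103 to 90789600) lie close together on chromosome 5 and encode neutrophil-attracting ligands of CXCR2. Cxcl1 had 7.04, 30.6, 116 and 57.9 CPM in NRas livers 1 to 4, against 4.63, 6.15 and 6.37 CPM in c-Met livers 1 to 3, with all NRas livers above all c-Met livers (log2 fold change 3.21 ± 0.66 (SE), adjusted p = 0.0438). Cxcl3 had 0.879, 3.83, 9.66 and 34.8 CPM in NRas livers 1 to 4 and 0 counts in every c-Met and SB liver, so it was at least 33.9-fold higher. Their promoters are printed because both carry the same 9-base match of the kind that NF-kB proteins bind. The 120 bases before each transcription start (RefSeq, GRCm38.p6) read as follows, with the match to GGAATTTCC or its reverse complement in capitals.
Cxcl1 (chr5:90891125-90891244, plus strand): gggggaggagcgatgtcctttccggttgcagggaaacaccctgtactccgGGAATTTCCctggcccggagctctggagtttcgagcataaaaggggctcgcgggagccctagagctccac
Cxcl3 (chr5:90785981-90786100, plus strand): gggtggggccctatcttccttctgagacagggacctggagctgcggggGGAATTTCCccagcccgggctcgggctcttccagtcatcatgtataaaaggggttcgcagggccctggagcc
The match begins 70 bases before the start in Cxcl1 and 72 before it in Cxcl3, and 94 of 32851 promoters (0.286%) hold it within 250 bases before the start. It describes letters in the window and no binding was measured.

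The receptor gene Cxcr2 itself had 0.879, 0.696, 2.84 and 10.7 CPM in the NRas livers and 0, 1.02 and 0 CPM in the c-Met livers, overlapping levels. Cxcl13, a chemokine that attracts B cells, had 13.6, 38.3, 161 and 13.02 CPM in NRas livers 1 to 4, against 2.78, 1.71 and 1.88 CPM in c-Met livers 1 to 3. All 4 NRas livers were higher, NRas liver 3 far above the rest (log2 fold change 4.75 ± 0.97 (SE), adjusted p = 0.0438). Lcn2 (chromosome 2, 32384633 to 32388252), encoding lipocalin 2, an iron-siderophore binding protein of the acute phase response and of neutrophil granules, had 33.9, 939.5, 5689 and 2642 CPM in NRas livers 1 to 4, against 24.5, 105 and 55.5 CPM in c-Met livers 1 to 3. Only NRas liver 1 was not above every c-Met and SB liver (log2 fold change 5.22 ± 1.09 (SE), adjusted p = 0.0438). S100a8, a calcium-binding protein of myeloid cells, had 6.59, 8.003, 31.8 and 33.9 CPM in the NRas livers and 4.63, 1.71 and 1.12 CPM in the c-Met livers and rose with all 4 NRas livers above the c-Met livers (log2 fold change 3.09 ± 0.64 (SE), adjusted p = 0.0438). In a list of 20 tested NF-kB response and leukocyte adhesion genes Cxcl1 was the single call, with 18 log2 differences above 0 and a median of 0.72 with all livers (0.0246 over all genes).

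Of the hormone and kinase genes called, Stc1, encoding the glycoprotein hormone stanniocalcin 1, had 0.44, 9.39, 25.9 and 3.905 CPM in the NRas livers and 1 count in all c-Met livers together, a pooled ratio of 86.5-fold (95% counting interval 15.3 to 3440). The kinase gene Src, the prototype non-receptor tyrosine kinase, had 2.198, 2.09, 9.37 and 5.53 CPM in the NRas livers and 0.926, 0.342 and 0.375 CPM in the c-Met livers, with no overlap (log2 fold change 3.15 ± 0.66 (SE), adjusted p = 0.0438), and 1.203 to 3.41 CPM in the SB livers. The NRas livers overlapped the SB livers, and all c-Met livers were below every SB liver.

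Surface, junction and scaffold genes were the third set. Cdh17, encoding liver-intestine cadherin, had 1.76, 20.9, 89.8 and 28.3 CPM in the NRas livers and 0, 1.02 and 0 CPM in the c-Met livers, a pooled ratio of 103-fold (95% counting interval 35 to 500). All NRas livers were higher, liver 3 most. Mpdz, a scaffold with many PDZ domains found at tight junctions, had 10.99, 70.98, 348 and 168 CPM in the NRas livers and 15.7, 14.3 and 19.5 CPM in the c-Met livers (log2 fold change 3.18 ± 0.65 (SE), adjusted p = 0.0438). NRas liver 1 was below the c-Met livers and the other NRas livers were above them. Fblim1, which encodes the filamin-binding adhesion protein migfilin, had 1.76, 14.3, 33.8 and 14.3 CPM in the NRas livers and 1.85, 1.71 and 2.25 CPM in the c-Met livers (log2 fold change 3.06 ± 0.64 (SE), adjusted p = 0.0438), with NRas liver 1 inside the c-Met range. Kif5c, a kinesin heavy chain, was at 0 in NRas liver 1 and in every c-Met liver, against 4.87, 14.2 and 11.7 CPM in NRas livers 2 to 4, at least 22-fold higher over the 4 NRas livers. Ocstamp, a transmembrane protein of osteoclast fusion, had 1.76, 5.57, 42.3 and 25.7 CPM in the NRas livers and 1.85, 1.71 and 1.5 CPM in the c-Met livers (log2 fold change 3.49 ± 0.71 (SE), adjusted p = 0.0438).

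The remaining genes that rose have varied roles. Elf3, an epithelial ETS transcription factor, had 0.879, 5.22, 9.09 and 5.86 CPM in the NRas livers and 0.463, 0 and 0.375 CPM in the c-Met livers, a pooled ratio of 22.1-fold (95% counting interval 5.89 to 186). Crybb3, a beta crystallin, had 1.76, 7.66, 28.4 and 9.76 CPM in the NRas livers and 0.463, 0.342 and 0 CPM in the c-Met livers, a ratio of 51.5-fold (95% counting interval 14 to 429). In both, all 4 NRas livers were above the c-Met livers. G6pdx, the first enzyme of the pentose phosphate pathway, had 5.28, 23.3, 38.1 and 31.2 CPM in the NRas livers and 7.41, 4.44 and 4.87 CPM in the c-Met livers (log2 fold change 2.17 ± 0.45 (SE), adjusted p = 0.0438), with NRas liver 1 inside the c-Met range. The 1 mouse gene that fell, BC049987, had 15.8, 10.8, 9.09 and 11.7 CPM in the NRas livers and 22.7, 24.6 and 35.2 CPM in the c-Met livers and 10.02 to 14.6 CPM in the SB livers (log2 fold change -1.23 ± 0.23 (SE), adjusted p = 0.0249). All 4 NRas livers were below all 3 c-Met livers, while the NRas range overlapped that of the SB livers and the c-Met livers were above it.

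The cell cycle inhibitors at the Cdkn2 locus are a further member of the called set. Cdkn2b (chromosome 4, 89306289 to 89311032), which encodes the CDK4/6 inhibitor p15INK4B, had 3.08, 10.8, 41.8 and 9.44 CPM in NRas livers 1 to 4, against 0.926, 1.71 and 0.75 CPM in c-Met livers 1 to 3, and 0 to 0.428 CPM in the SB livers. All 4 NRas livers were above every c-Met liver and every SB liver (log2 fold change 3.80 ± 0.75 (SE), adjusted p = 0.0438). The neighbouring Cdkn2a (chromosome 4, 89274471 to 89294653), encoding p16INK4A and ARF, had 0, 1.74, 10.5 and 4.23 CPM in the NRas livers and 0, 0.342 and 0.375 CPM in the c-Met livers. NRas liver 1 was at 0, and without it the gene rose, with a pooled ratio of 22.5-fold (95% counting interval 5.95 to 191) and an adjusted p of 0.0226. Of 17 tested p53 targets and INK4-ARF inhibitors, 1 was called with all livers and 3 without NRas liver 1, the third being Phlda3, a p53-induced repressor of AKT, at 0.44, 2.09, 7.102 and 4.88 CPM in the NRas livers and 0, 1.37 and 0.75 CPM in the c-Met livers. Without NRas liver 1, 8 of the 17 did not overlap, all higher (9.33% of all transcripts did so).

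Without NRas liver 1, the liver with the least human NRAS, 284 of 19331 transcripts were called. Of these, 236 were higher (1.22%) and 48 lower (0.248%), and all 26 earlier calls were among them. Of the 235 mouse genes that rose, 223 (94.9%) had NRas livers 2 to 4 above every SB liver and 30 (12.8%) had all c-Met livers above every SB liver, where the shares over all mouse genes with a difference above 0 were 23.2% and 5.55%. Of the 47 mouse genes that fell, 41 (87.2%) had NRas livers 2 to 4 below every SB liver and 17 (36.2%) had all c-Met livers below, where the shares over all mouse genes with a difference below 0 were 19.8% and 6.22%. The calls were made on the same NRas and c-Met livers, so these shares describe the called genes and test nothing. Leaving out NRas liver 3 as well left 54 calls, and leaving out c-Met liver 1 or 3 left 84 or 78. With scaling by library size alone there were 512 calls and the higher share was 96.5%, against 83.1% with TMM, and the median log2 difference over all genes shifted to 0.292, against 0.0132 with TMM.

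**Figure D3:**
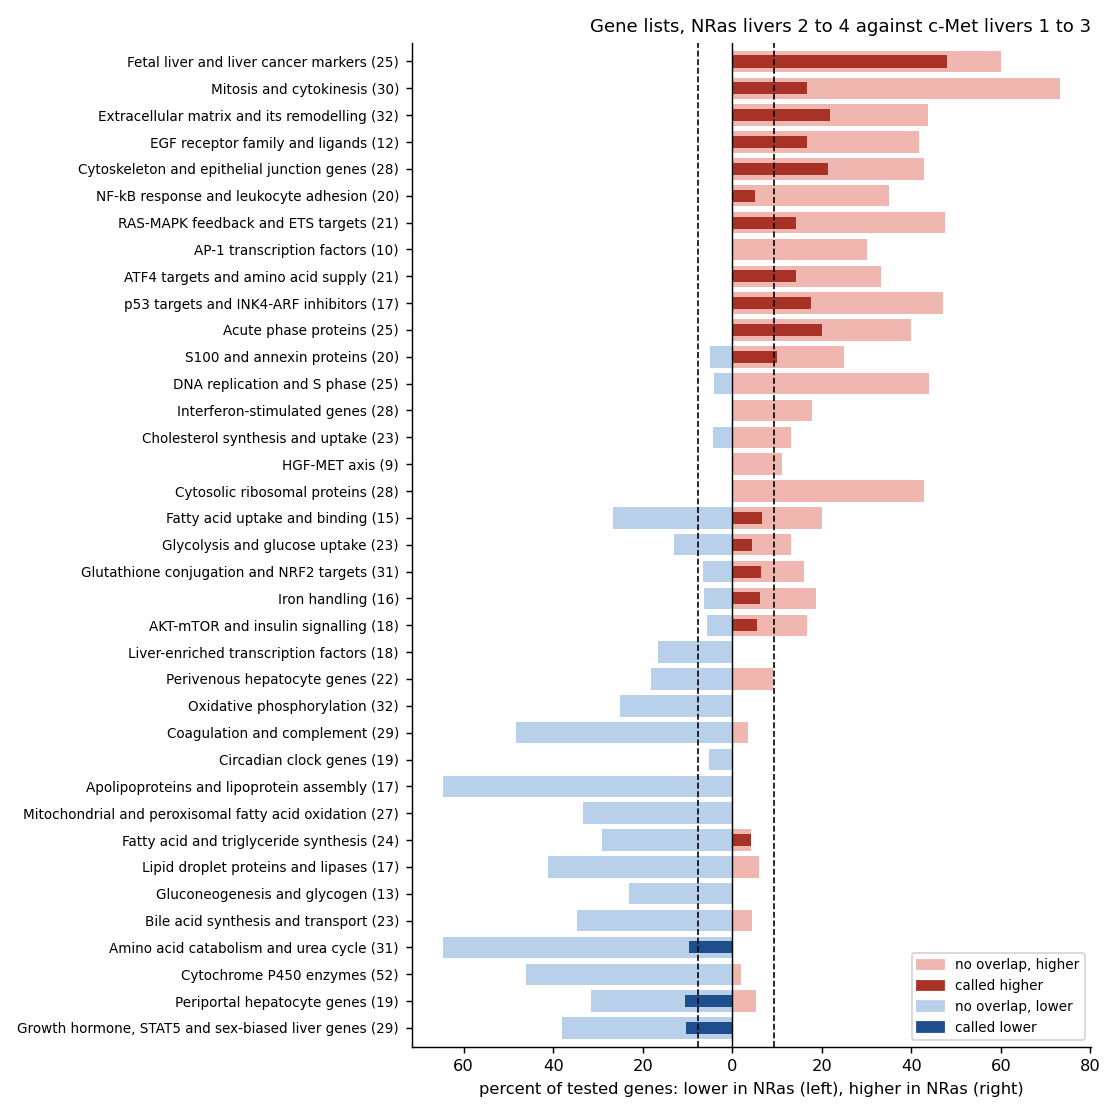
For 37 gene lists (number of tested genes in parentheses), the percent of genes whose NRas livers 2 to 4 all lie above (right, pale red) or below (left, pale blue) the c-Met livers, with called genes as dark bars and the share over all genes, 9.33% above and 7.64% below, as dashed lines. Fetal liver markers, mitosis and matrix genes extend to the right, and amino acid catabolism, apolipoproteins and cytochrome P450 enzymes to the left.

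Gene lists are read below against those backgrounds. Over all transcripts, NRas livers 2 to 4 stood entirely above the c-Met livers for 9.33% and entirely below them for 7.64%, and with all 4 NRas livers the shares were 2.63% above and 2.72% below. Genes of the RAS-MAPK output come first, since NRAS feeds that cascade. Of 21 tested feedback regulators and ETS targets, 0 were called with all livers and 3 without NRas liver 1, and 10 had NRas livers 2 to 4 above the c-Met livers. Ier3, an immediate early gene and ERK substrate, had 0, 9.39, 34.7 and 14.6 CPM in the NRas livers and 2.78, 1.71 and 0.75 CPM in the c-Met livers (log2 fold change 3.51 ± 0.66 (SE), adjusted p = 0.00417). Ccnd1, cyclin D1, had 37.8, 128, 233 and 135 CPM in the NRas livers and 49.5, 81.3 and 54.4 CPM in the c-Met livers (log2 fold change 1.42 ± 0.34 (SE), adjusted p = 0.0282). In both genes NRas livers 2 to 4 were above all c-Met livers and NRas liver 1 below them.

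Dusp5, a nuclear ERK phosphatase, had 0.44, 2.78, 6.53 and 4.56 CPM in the NRas livers and 0, 0.342 and 0.75 CPM in the c-Met livers, a ratio of 12.3-fold (95% counting interval 3.94 to 61.8) without NRas liver 1, and was the third call of that list (adjusted p = 0.0401). Dusp6, the cytoplasmic ERK phosphatase, had 40.5, 54.3, 72.7 and 74.2 CPM in the NRas livers and 22.2, 44.4 and 38.6 CPM in the c-Met livers and was not called (log2 difference 0.93 ± 0.32, adjusted p = 0.129). The list's summed level was 129, 319.8, 505 and 345 CPM in NRas livers 1 to 4, against 158, 238 and 184 CPM in c-Met livers 1 to 3. Its 21 genes had a median log2 difference of 0.78 with all livers and 0.93 without NRas liver 1.

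Among ligands of the EGF receptor, 2 that ERK signalling is known to induce rose without NRas liver 1. Tgfa, transforming growth factor alpha, had 10.1, 24.4, 22.4 and 31.6 CPM in the NRas livers and 13.4, 12.3 and 13.1 CPM in the c-Met livers (log2 fold change 1.01 ± 0.24 (SE), adjusted p = 0.028), and Hbegf, heparin-binding EGF-like growth factor, had 2.64, 3.48, 11.1 and 8.14 CPM in the NRas livers and 1.39, 2.05 and 0.375 CPM in the c-Met livers (log2 fold change 2.53 ± 0.68 (SE), adjusted p = 0.0494). For both, NRas livers 2 to 4 were above the c-Met livers. These were the 2 calls among 12 tested EGF receptor family genes, of which 5 did not overlap without NRas liver 1. The summed level of the 12 genes was 289, 226, 142 and 297 CPM in NRas livers 1 to 4, against 332, 142 and 312 CPM in c-Met livers 1 to 3, and the groups overlapped. Of 9 tested genes of the HGF-MET axis 0 were called in either comparison, and 1 did not overlap without NRas liver 1. Of 18 tested AKT-mTOR and insulin genes Akt1 was the single call, made without NRas liver 1. AP-1 transcription factors gave 0 calls of 10 in either comparison. Without NRas liver 1, 3 of the 10 did not overlap, all higher (9.33% of all transcripts did so), and 9 log2 differences were above 0. Jun overlapped, at 26.4, 91.5, 63.1 and 91.5 CPM in the NRas livers and 61.6, 65.3 and 78.4 CPM in the c-Met livers.

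Of 30 genes of mitosis and cytokinesis 0 were called when all livers were used, and 5 rose without NRas liver 1. The summed level of the 30 genes was 54.5, 242, 299 and 285 CPM in NRas livers 1 to 4, against 29.2, 120 and 125 CPM in c-Met livers 1 to 3, and 20.9 to 34.7 CPM in the SB livers. NRas livers 2 to 4 were above all c-Met livers, and NRas liver 1 lay between c-Met liver 1 and the other c-Met livers. All 30 log2 differences were above 0 (median 1.35 with all livers and 1.62 without NRas liver 1). Without NRas liver 1, 22 of 30 did not overlap, and the 5 calls were Tpx2, Cenpf, Cenpe, Mki67 and Top2a. Mki67, the proliferation antigen Ki-67, had 1.32, 15.7, 20.2 and 29.9 CPM in the NRas livers and 0.926, 8.202 and 7.87 CPM in the c-Met livers (log2 fold change 1.89 ± 0.42 (SE), adjusted p = 0.0157). Tpx2, a spindle assembly factor, had 1.32, 11.5, 9.94 and 13.7 CPM in the NRas livers and 0, 3.76 and 1.88 CPM in the c-Met livers (log2 fold change 2.51 ± 0.47 (SE), adjusted p = 0.00447). Of 25 DNA replication and S phase genes, 11 did not overlap in the higher direction without NRas liver 1, and 0 were called in either comparison.

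Genes of cystine and serine supply include 1 of the calls made with all livers. Slc7a11 (chromosome 3, 49892526 to 50443614), the cystine/glutamate exchanger that supplies glutathione synthesis, had 0.44, 11.1, 13.3 and 37.8 CPM in NRas livers 1 to 4, against 0.926, 0.342 and 0 CPM in c-Met livers 1 to 3, a pooled ratio of 43.1-fold (95% counting interval 14.5 to 211). All but NRas liver 1 were above every c-Met and SB liver. Phgdh, the first enzyme of serine synthesis, was at 0 in NRas liver 1 and all c-Met livers, against 1.39, 15.9 and 1.302 CPM in NRas livers 2 to 4, where liver 3 dominated. Without NRas liver 1 it was at least 17.5-fold higher (adjusted p = 0.0305). Psat1, the next enzyme of that pathway, had 0.44, 6.26, 38.9 and 6.83 CPM in the NRas livers and 0, 4.101 and 1.88 CPM in the c-Met livers (log2 fold change 3.02 ± 0.73 (SE), adjusted p = 0.0316). Without NRas liver 1, these were the 3 calls among 21 tested ATF4 targets and amino acid supply genes.

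The Slc7a11 promoter is shown because it holds a paired match to TGATGNAA, a form of the element that ATF4 and C/EBP proteins bind. The 120 bases before its start (RefSeq, GRCm38.p6) carry the matches, on either strand, in capitals.
Slc7a11 (chr3:50443614-50443733, minus strand): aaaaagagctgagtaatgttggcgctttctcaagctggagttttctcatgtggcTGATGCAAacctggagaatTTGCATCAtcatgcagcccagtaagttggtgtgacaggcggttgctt
The matches begin 66 and 47 bases before the start. Of 32851 promoters, 1134 (3.45%) hold at least 1 such match within 250 bases before the start, and those of Phgdh and Psat1 have none in that window. The matches describe letters and no binding was measured, so they do not show which factor acts on Slc7a11.

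Of 25 tested acute phase and metal-binding genes, 5 were called higher than in the c-Met livers without NRas liver 1, and 10 did not overlap, all higher. The list summed to 27070, 24360, 49970 and 29870 CPM in NRas livers 1 to 4, against 15980, 18390 and 19590 CPM in c-Met livers 1 to 3. The SB livers had 21250 to 38700 CPM. NRas livers 1, 2 and 4 were within that range, NRas liver 3 was above it and all c-Met livers were below it. Mt2, a metallothionein that binds zinc and copper, had 7.47, 72.4, 328 and 167 CPM in NRas livers 1 to 4, against 4.17, 19.1 and 8.25 CPM in c-Met livers 1 to 3 (log2 fold change 4.13 ± 0.67 (SE), adjusted p = 0.00108), and Mt1 had 48.8, 288, 1253 and 608 CPM in the NRas livers and 22.7, 108 and 56.99 CPM in the c-Met livers (log2 fold change 3.52 ± 0.59 (SE), adjusted p = 0.0016). For both genes NRas liver 1 was within the c-Met range. Cp, encoding the copper-carrying plasma ferroxidase ceruloplasmin, had 1157, 2239, 4840 and 2745 CPM in the NRas livers and 1350, 1461 and 1297 CPM in the c-Met livers (log2 fold change 1.25 ± 0.25 (SE), adjusted p = 0.0073). Orm2, an alpha-1-acid glycoprotein, had 55.4, 290.5, 697 and 467 CPM in the NRas livers and 48.6, 193 and 111 CPM in the c-Met livers (log2 fold change 2.05 ± 0.48 (SE), adjusted p = 0.0267). The fifth was Lcn2.

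Several matrix genes rose without NRas liver 1. Of 32 tested extracellular matrix genes 0 were called with all livers, and without NRas liver 1 7 were called and 14 did not overlap, all higher (median log2 difference 1.38). Col4a1 and Col4a2 encode the chains of the common basement membrane collagen. Col4a1 had 18.9, 84.6, 119 and 87.5 CPM in NRas livers 1 to 4, against 15.7, 27.3 and 31.9 CPM in c-Met livers 1 to 3 (log2 fold change 1.95 ± 0.36 (SE), adjusted p = 0.00385), and Col4a2 had 7.91, 34.5, 62.5 and 36.1 CPM in the NRas livers and 12.5, 10.6 and 16.1 CPM in the c-Met livers (log2 fold change 1.76 ± 0.31 (SE), adjusted p = 0.00277). Timp1, an inhibitor of matrix metalloproteinases, had 0.879, 14.96, 60.8 and 13.99 CPM in the NRas livers and 0.926, 2.39 and 2.25 CPM in the c-Met livers (log2 fold change 3.94 ± 0.80 (SE), adjusted p = 0.00778). Loxl2, a collagen cross-linking enzyme, had 1.76, 18.8, 25.3 and 37.8 CPM in the NRas livers and 2.31, 9.91 and 7.499 CPM in the c-Met livers (log2 fold change 2.01 ± 0.43 (SE), adjusted p = 0.0142). In each of these NRas livers 2 to 4 were above all c-Met livers. Col1a1, the chain of fibrillar type I collagen, had 3.52, 70.6, 141 and 33.9 CPM in the NRas livers and 10.2, 22.2 and 31.1 CPM in the c-Met livers and did not pass (adjusted p = 0.0585).

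Of 28 cytoskeleton and epithelial junction genes 6 were called without NRas liver 1. Vim, the mesenchymal intermediate filament vimentin, had 17.6, 74.5, 124 and 45.6 CPM in the NRas livers and 15.3, 24.9 and 38.2 CPM in the c-Met livers (log2 fold change 1.63 ± 0.39 (SE), adjusted p = 0.0295). Tuba1a, an alpha tubulin, had 7.47, 27.5, 82.95 and 22.8 CPM in the NRas livers and 2.78, 10.2 and 8.25 CPM in the c-Met livers (log2 fold change 2.61 ± 0.59 (SE), adjusted p = 0.0199). Tmsb10, the actin-binding thymosin beta 10, had 3.08, 18.8, 47.2 and 18.6 CPM in the NRas livers and 3.24, 12.7 and 5.999 CPM in the c-Met livers (log2 fold change 1.91 ± 0.48 (SE), adjusted p = 0.0353). Krt20, a keratin of intestinal epithelium, had 0.44, 5.92, 28.98 and 10.4 CPM in the NRas livers and 0, 2.39 and 0 CPM in the c-Met livers (log2 fold change 4.04 ± 0.95 (SE), adjusted p = 0.0267). All 4 genes had NRas livers 2 to 4 above the c-Met livers, Krt20 and Tmsb10 with liver 3 well above the others.

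Markers of some cell types other than hepatocytes moved with these calls and those of others did not. Fold changes and adjusted p values in this paragraph are without NRas liver 1. The summed level of 20 cholangiocyte and ductular markers was 179.8, 2645, 8969 and 1012 CPM in NRas livers 1 to 4, against 100, 436 and 250.1 CPM in c-Met livers 1 to 3, and 96.3 to 133 CPM in the SB livers. The c-Met livers were below NRas livers 2 to 4, and of them liver 1 was within the SB range and livers 2 and 3 were above it. Spp1 (chromosome 5, 104435118 to 104441050), encoding osteopontin, a secreted phosphoprotein of ductular cells and macrophages, made up most of that sum in the NRas livers, at 98.5, 2488, 8582 and 874 CPM in NRas livers 1 to 4, against 32.9, 355 and 171 CPM in c-Met livers 1 to 3 (log2 fold change 4.43 ± 0.94 (SE), adjusted p = 0.0115). Sox9, the biliary transcription factor, had 48.4, 56.4, 167 and 41.98 CPM in the NRas livers and 12.5, 21.2 and 25.9 CPM in the c-Met livers (log2 fold change 2.15 ± 0.52 (SE), adjusted p = 0.0305), and the biliary keratin Krt19 had 0, 13.2, 18.8 and 0 CPM in the NRas livers and 0, 0 and 0.75 CPM in the c-Met livers. Krt19 was at 0 in NRas livers 1 and 4, so its call without NRas liver 1 (adjusted p = 0.0486) rests on NRas livers 2 and 3, with a pooled ratio of 42.6-fold (95% counting interval 11.5 to 356). Of 19 tested markers in this list 0 were called with all livers and 1 did not overlap. Without NRas liver 1, 4 were called and 5 did not overlap, all higher.

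For 17 markers of monocyte-derived macrophages the summed level was 376, 3234, 10020 and 1450 CPM in NRas livers 1 to 4, against 211, 899 and 515 CPM in c-Met livers 1 to 3, mostly Spp1 in NRas livers 2 to 4. Cd14, the lipopolysaccharide co-receptor, had 3.96, 18.1, 129.8 and 41.3 CPM in the NRas livers and 0.926, 5.13 and 3 CPM in the c-Met livers (log2 fold change 4.31 ± 0.78 (SE), adjusted p = 0.00326, without NRas liver 1). It was 1 of 4 calls without that liver, with Spp1, Fabp5 and Cd63, and 0 markers of this list were called with all livers. Reads of Cd63 and Fabp5 can be shared with near-identical copies in the genome, so both are uncertain. The 13 resident Kupffer cell markers summed to 930.4, 791, 341 and 691 CPM in NRas livers 1 to 4, against 779, 761 and 727 CPM in c-Met livers 1 to 3, with NRas liver 3 lowest and 0 calls. Neutrophil markers summed to 50.6, 960, 5750 and 2750 CPM in NRas livers 1 to 4, against 35.6, 114 and 59.99 CPM in c-Met livers 1 to 3, nearly all of it Lcn2 in NRas livers 2 to 4. Of 13 tested, 2 were called with all livers (Lcn2 and S100a8) and 3 without NRas liver 1. The third, S100a9, had 7.035, 5.915, 15.34 and 45.56 CPM in the NRas livers and 3.704, 2.734 and 1.875 CPM in the c-Met livers. The granule genes Ngp, Elane and Mpo were at 0 in all 7 livers. Stellate cell and fibroblast markers summed to 402, 966, 1177 and 568 CPM in NRas livers 1 to 4, against 430.2, 594 and 611 CPM in c-Met livers 1 to 3. Rgs5, a pericyte regulator of G protein signalling, was the 1 call without NRas liver 1, and 0 were called with all livers. The 18 markers went both ways. Without NRas liver 1, 5 were higher and 3 lower without overlap (9.33% and 7.64% of all transcripts). With all livers 1 was higher and 2 were lower (2.63% and 2.72% of all transcripts). With all livers, sinusoidal endothelium (16 tested, median log2 difference -0.225), T and NK cell (18, median -0.0735) and dendritic cell and MHC class II markers (14, median -0.0958) had 0 calls, and without NRas liver 1 they had 1, 0 and 0. The part of these cell types in the results above was not tested.

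A pair of immunoglobulin transcripts was lower in the NRas than in the c-Met livers without NRas liver 1. Ighm, the IgM heavy chain, had 18.9, 8.699, 8.24 and 15.6 CPM in the NRas livers and 23.1, 25.3 and 68.99 CPM in the c-Met livers (log2 fold change -1.85 ± 0.41 (SE), adjusted p = 0.017), and Igkc, the kappa light chain constant region, had 14.5, 4.52, 7.39 and 8.46 CPM in the NRas livers and 21.8, 30.4 and 15.4 CPM in the c-Met livers (log2 fold change -1.72 ± 0.41 (SE), adjusted p = 0.0267). Both had every NRas liver below every c-Met liver. Of 11 tested B cell and plasma cell markers these were the 2 calls without NRas liver 1, and the B cell receptor subunit Cd79a was at 0 in all 7 livers. The markers summed to 75.6, 102, 132 and 80.4 CPM in NRas livers 1 to 4, against 90.3, 152 and 196 CPM in c-Met livers 1 to 3. These sums overlapped. The SB livers had 44.9 to 75.4 CPM, so neither model was below them.

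Several lists of hepatocyte functions had more members lower than higher, and with all livers 0 genes of the lists named next passed the test. Amino acid catabolism and the urea cycle had 0 of 31 calls with all livers, and without NRas liver 1 3 fell and 20 of 31 did not overlap, all lower (median log2 difference -0.78). Gnmt, the glycine methyltransferase that regulates methyl group supply, had 1760, 546, 173 and 325 CPM in NRas livers 1 to 4, against 668, 994 and 1463 CPM in c-Met livers 1 to 3, and 2123 to 2684 CPM in the SB livers (log2 fold change -1.58 ± 0.37 (SE), adjusted p = 0.0267). NRas livers 2 to 4 were below all c-Met livers and NRas liver 1 was above them. Agxt, which detoxifies glyoxylate in peroxisomes, had 168, 82.5, 49.4 and 104 CPM in the NRas livers and 177, 162 and 208 CPM in the c-Met livers (log2 fold change -1.22 ± 0.27 (SE), adjusted p = 0.0162). Hal, the first enzyme of histidine breakdown, had 189, 43.5, 20.4 and 60.5 CPM in the NRas livers and 175, 76.2 and 123 CPM in the c-Met livers (log2 fold change -1.60 ± 0.36 (SE), adjusted p = 0.0185). Ass1, a urea cycle enzyme, had 471, 248, 121 and 256 CPM in the NRas livers and 456, 345 and 374 CPM in the c-Met livers and passed the adjusted p but not the fold limit (log2 fold change -0.92 ± 0.24 (SE), adjusted p = 0.0415). The summed level of the list was 14070, 8022, 4556 and 8681 CPM in NRas livers 1 to 4, against 13180, 10670 and 13040 CPM in c-Met livers 1 to 3, so NRas liver 1 was the highest of the 7 and the other NRas livers the lowest.

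Of 52 tested cytochrome P450 genes 0 were called in either comparison, and without NRas liver 1 24 did not overlap in the lower direction and 1 in the higher. Cyp2f2, a periportal P450, had 1399, 689, 202 and 369.7 CPM in the NRas livers and 726, 1328 and 1246 CPM in the c-Met livers (log2 difference -1.39 ± 0.39, adjusted p = 0.0588). Cyp7b1, an oxysterol hydroxylase of bile acid synthesis, had 240.5, 40.02, 11.1 and 44.3 CPM in the NRas livers and 132, 47.5 and 143 CPM in the c-Met livers (adjusted p = 0.0719). Slc10a1, the sodium-dependent bile acid uptake carrier, had 516, 116, 21.9 and 95.03 CPM in the NRas livers and 247, 224 and 389 CPM in the c-Met livers (log2 difference -1.90 ± 0.52, adjusted p = 0.0556). In all 3 genes NRas livers 2 to 4 were below the c-Met livers and NRas liver 1 was above them, and their tests without NRas liver 1 missed the threshold by a small margin.

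Growth hormone, STAT5 and sex-biased liver genes summed to 67920, 19410, 8421 and 14850 CPM in NRas livers 1 to 4, against 33420, 30050 and 38950 CPM in c-Met livers 1 to 3, and 53200 to 59170 CPM in the SB livers. NRas liver 1 was above the SB livers, the c-Met livers were below them, and NRas livers 2 to 4 were lowest. Of 29 tested genes 3 fell without NRas liver 1 and 11 did not overlap, all lower. Hsd3b5, a male-biased steroid dehydrogenase of hepatocytes, had 173, 3.13, 0.284 and 3.25 CPM in NRas livers 1 to 4, against 70.4, 1.37 and 62.6 CPM in c-Met livers 1 to 3 (log2 fold change -4.36 ± 0.99 (SE), adjusted p = 0.0197, without NRas liver 1). c-Met liver 2 lay between NRas liver 3 and NRas livers 2 and 4, so the groups overlapped despite the call. Igfals, the acid-labile subunit that carries IGF1 in plasma, had 61.1, 19.8, 8.52 and 20.5 CPM in the NRas livers and 52.3, 28.7 and 49.5 CPM in the c-Met livers (log2 fold change -1.43 ± 0.34 (SE), adjusted p = 0.0305). Ghr, the growth hormone receptor, had 539, 289, 123 and 196 CPM in the NRas livers and 347, 389 and 483 CPM in the c-Met livers (log2 fold change -1.01 ± 0.27 (SE), adjusted p = 0.0471), and Igf1 had 1214, 755, 367 and 585 CPM in the NRas livers and 797, 923 and 1030 CPM in the c-Met livers (adjusted p = 0.0724).

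**Figure D4:**
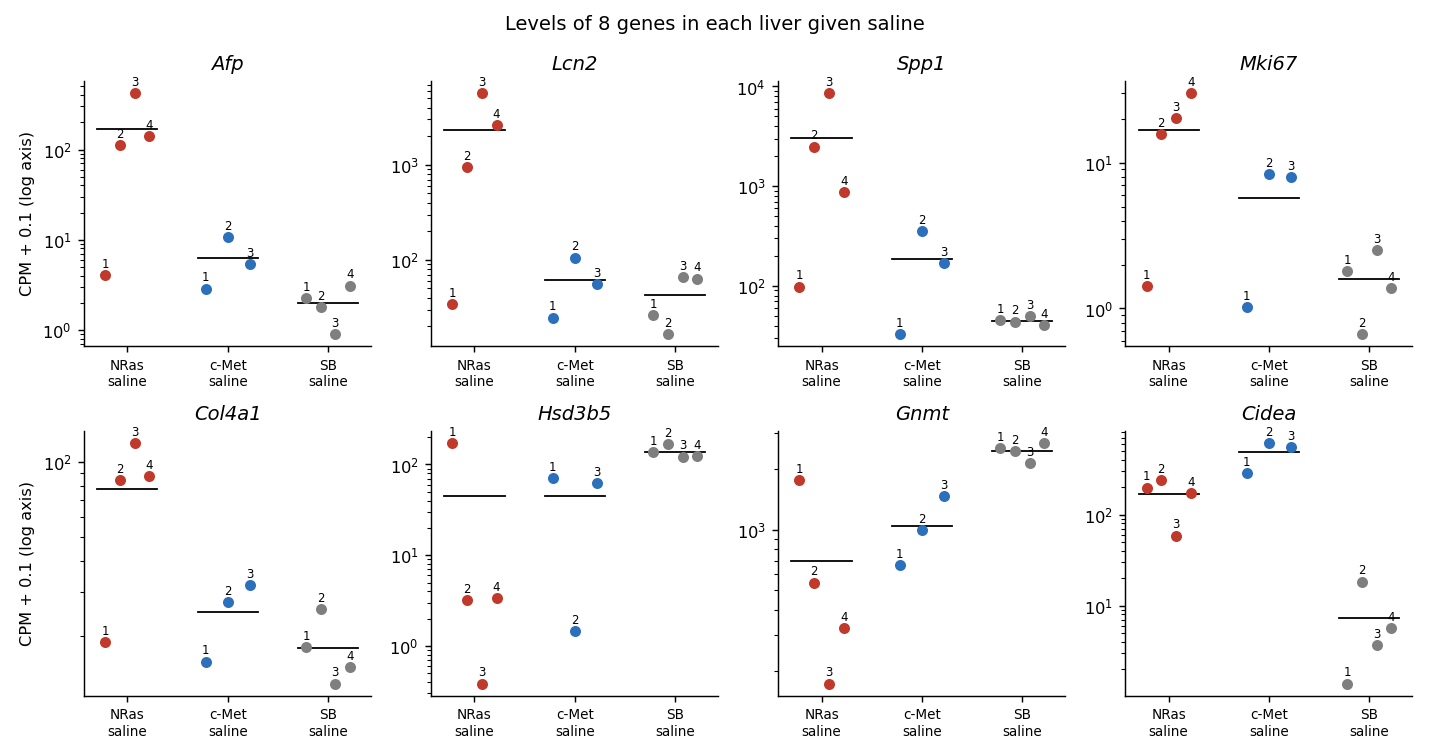
CPM plus 0.1 on a log axis for 8 genes in the NRas + saline, c-Met + saline and SB + saline livers, 1 point a liver with its replicate number, group means as lines. For Afp, Lcn2, Spp1, Mki67 and Col4a1, NRas livers 2 to 4 are above all c-Met livers and NRas liver 1 is not, and for Gnmt and Hsd3b5 NRas liver 1 is the highest of the 7.

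Single genes with the largest decreases without NRas liver 1 included Car3, a carbonic anhydrase abundant in hepatocytes and adipocytes, at 9299, 2577, 872 and 1833 CPM in the NRas livers and 7327, 4149 and 10020 CPM in the c-Met livers (log2 fold change -2.03 ± 0.45 (SE), adjusted p = 0.0162). Inmt, an indolethylamine methyltransferase, had 412, 146, 63.1 and 137 CPM in the NRas livers and 429, 346 and 376 CPM in the c-Met livers (log2 fold change -1.74 ± 0.43 (SE), adjusted p = 0.0332). Etnppl, a phospholyase of periportal hepatocytes, had 125, 33.1, 7.102 and 44.3 CPM in the NRas livers and 102, 107 and 56.2 CPM in the c-Met livers (log2 fold change -1.67 ± 0.45 (SE), adjusted p = 0.0494). In these, NRas livers 2 to 4 were below the c-Met livers, and NRas liver 1 was within or above their range. The others chosen by size of decrease, Car14 (a carbonic anhydrase), Cd207 (the lectin langerin), Abca8a (a lipid transporter of the ABC family), Macrod1 (a mitochondrial ADP-ribosyl hydrolase), Ttc39c, Gm13775 and Serpina4-ps1, had log2 fold changes of -3.16 to -1.66. Their NRas livers 2 to 4 were also below the c-Met livers. Lack of overlap was required for a gene to be chosen here, so it is no separate result. On the other side, Wfdc18, a whey acidic protein family member, had 0.879, 135, 265 and 4.56 CPM in the NRas livers and 0.926, 0.342 and 0.375 CPM in the c-Met livers (log2 fold change 7.91 ± 1.65 (SE), adjusted p = 0.0101). Erich4, Myo5c (an epithelial myosin) and Ly6c1 (a surface antigen of endothelial and myeloid cells) completed the largest increases. Erich4 and Myo5c were at 0 in the c-Met livers, and without NRas liver 1 they were at least 27-fold and at least 15.8-fold higher, while Ly6c1 had a ratio of 89.3-fold (95% counting interval 15.7 to 3560).

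Of the lipid lists, synthesis and oxidation of fatty acids had summed levels that did not overlap between the models, while those of lipid droplet, apolipoprotein, fatty acid uptake and cholesterol genes did. The summed level of 24 fatty acid and triglyceride synthesis genes was 8619, 9446, 10070 and 11640 CPM in NRas livers 1 to 4, against 17170, 16260 and 15660 CPM in c-Met livers 1 to 3, with all NRas livers below all c-Met livers. The SB livers had 7679 to 10780 CPM. NRas livers 1 to 3 were within that range, NRas liver 4 was slightly above it and all c-Met livers were well above it. For 27 genes of mitochondrial and peroxisomal fatty acid oxidation the summed level was 6186, 5187, 3276 and 5578 CPM in NRas livers 1 to 4, against 6733, 7321 and 7053 CPM in c-Met livers 1 to 3, again lower in every NRas liver. Here the SB livers had 6920 to 8558 CPM, above every NRas liver and above c-Met liver 1, with c-Met livers 2 and 3 inside the range. By single synthesis genes 7 of 24 did not overlap in the lower direction with all livers, and 0 were called. Fasn, fatty acid synthase, had 186, 299, 233 and 270.1 CPM in NRas livers 1 to 4, against 563, 393 and 583 CPM in c-Met livers 1 to 3 (log2 difference -1.05 ± 0.31, adjusted p = 0.231). Scd2, a stearoyl-CoA desaturase, moved the other way, at 4.84, 127, 287 and 206 CPM in the NRas livers and 30.1, 53.7 and 30.4 CPM in the c-Met livers, and was called without NRas liver 1 (log2 fold change 2.44 ± 0.49 (SE), adjusted p = 0.00736). Cidea, a lipid droplet fusion protein, had 198, 239.7, 58.8 and 172 CPM in NRas livers 1 to 4, against 283, 616 and 547 CPM in c-Met livers 1 to 3, and 1.28 to 18.2 CPM in the SB livers. Every NRas liver was below every c-Met liver and above every SB liver (log2 difference -1.53 ± 0.42, adjusted p = 0.187). Of 17 lipid droplet proteins and lipases 3 did not overlap with all livers and 7 without NRas liver 1 in the lower direction, and of 17 apolipoproteins and assembly factors 11 were lower without overlap when NRas liver 1 was left out.

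Several other lists had few or no calls. Cytosolic ribosomal protein genes had 0 calls of 28 with 8 higher without overlap when all livers were used and 12 without NRas liver 1, and a median log2 difference of 0.31 with all livers. Rpl32 of the large subunit had 399, 448, 607 and 419 CPM in the NRas livers and 303, 369 and 324 CPM in the c-Met livers. With all livers, interferon-stimulated genes had 0 calls of 28 and 4 without overlap, all higher. Of 31 tested glutathione conjugation and NRF2 target genes 2 were called with all livers, both higher. Their median log2 difference was -0.0242. Oxidative phosphorylation genes had 0 calls of 32, and 8 were lower without overlap when NRas liver 1 was left out. Of 29 coagulation and complement genes 14 were lower without overlap under the same choice, and 0 were called.

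The same contrast was read in livers injured with TAA, which share no animal with the 7 livers. There 2 of 19381 transcripts were called (0.0103%), human NRAS and human MET, and 0 mouse genes (893 transcripts at an unadjusted p under 0.05; DESeq2 called 2 transcripts and limma-voom 4). Human MET was not called when any of NRas + TAA livers 1 to 4 or c-Met + TAA livers 2 to 4 was left out. Of the 23 mouse genes that rose in uninjured livers, 22 had a log2 difference above 0 in TAA livers (95.7%), and of the 235 that rose without NRas liver 1, 190 did (80.9%). The share was 50.8% over all transcripts and 55.3% over all mouse genes with a difference above 0 without NRas liver 1. Of the 47 that fell, 34 were below 0 (72.3%), beside 53.3% of all mouse genes with a difference below 0 without NRas liver 1. Lists varied. In TAA livers 9 of 30 mitosis and cytokinesis genes were above 0 (median log2 difference -0.172), against 30 with all saline livers. Of 24 fatty acid and triglyceride synthesis genes 21 were above 0 (median 0.305), against 5. Of 32 matrix genes 23 were above 0 (median 0.245), against 29, and of 21 feedback regulators and ETS targets 15 (median 0.232), against 18. Afp, with 27.2 to 167 CPM in NRas + TAA livers and 50.3 to 108 CPM in c-Met + TAA livers, had a log2 difference of 0.16 ± 0.57 there, and Lcn2, with 126 to 1197 CPM in NRas + TAA livers and 36.1 to 393 CPM in c-Met + TAA livers, had 1.56 ± 0.79. Tspan8 had 52.4, 50.5, 17.6, 9.63 and 105 CPM in NRas + TAA livers, against 3.84, 1.41, 4.91 and 9.83 CPM in c-Met + TAA livers, with 4 of the NRas + TAA livers above all c-Met + TAA livers and the fifth just below the highest of these (log2 difference 3.23 ± 0.75, adjusted p = 0.684). Cdkn2b had 9.68, 12.3, 6.58, 4.13 and 18.3 CPM in NRas + TAA livers, against 1.92, 2.11, 1.23 and 4.21 CPM in c-Met + TAA livers, likewise with 1 liver of each group in reversed order (log2 difference 2.12 ± 0.58, adjusted p = 0.956).

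**Figure D5:**
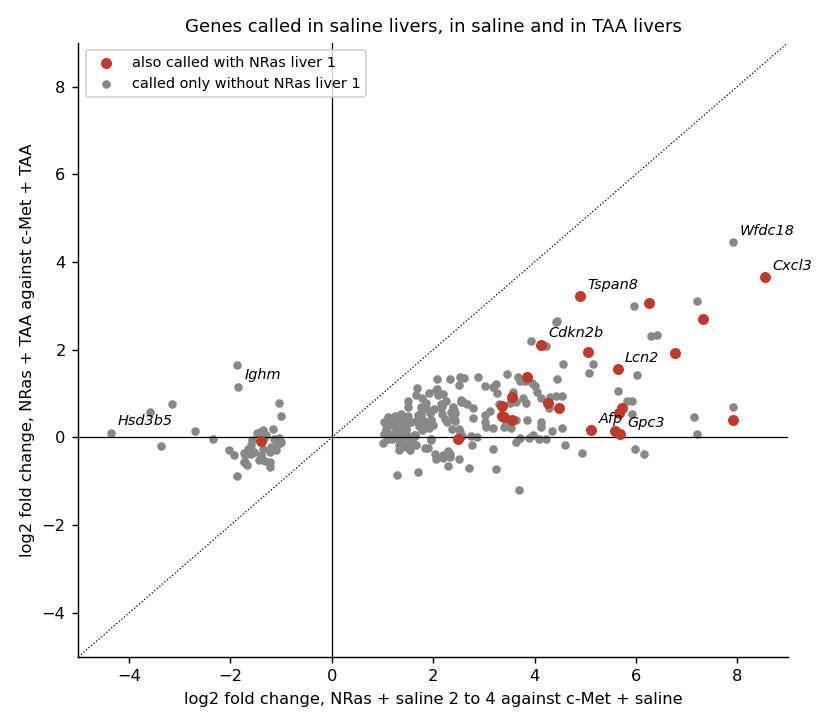
Log2 fold change of NRas against c-Met livers for the 282 mouse genes called in saline livers without NRas liver 1, in saline (x axis) and in TAA livers (y axis), with genes also called with NRas liver 1 in red and equal values on the dotted line. Most genes that rose lie above 0 on the y axis but well below the line, as Gpc3 and Afp do, and fitted values of genes with no counts in a group depend on the prior count.

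The difference between the saline and the TAA contrast passed the test for 3 genes (0.0155%). Gpc3 was high in both TAA groups, at 75.8, 87.1, 105, 66.01 and 81.95 CPM in NRas + TAA livers, against 89.9, 90.1, 90.5 and 47.04 CPM in c-Met + TAA livers, so the models overlapped there while they separated in saline livers (log2 difference of the contrasts 5.22 ± 0.92, adjusted p = 0.0446). For Cidea the order turned, with 149, 172, 55.5, 99.4 and 90.97 CPM in NRas + TAA livers, against 23.1, 31.7, 21.2 and 53 CPM in c-Met + TAA livers (log2 difference of the contrasts -3.34 ± 0.59, adjusted p = 0.0446). Ighm turned as well apart from a narrow overlap, at 48.4, 62.2, 66.8, 74.6 and 34.8 CPM in NRas + TAA livers, against 15.8, 25.7, 25.1 and 35.8 CPM in c-Met + TAA livers (log2 difference of the contrasts -2.79 ± 0.51, adjusted p = 0.0484). These 3 calls were close to the threshold. Leaving out NRas liver 1 gave 21 calls. Leaving out NRas liver 3 or 4, c-Met liver 2 or 3, NRas + TAA liver 1, 2 or 4, or c-Met + TAA liver 1 or 3 gave 0, and leaving out NRas + TAA liver 3 or c-Met + TAA liver 2 gave 1. DESeq2 called 9, limma-voom 1 and edgeR with a robust dispersion 0, and 1108 transcripts had an unadjusted p under 0.05.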

How the data were processed

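RNA from snap-frozen liver was primed with indexed poly(A) primers, pooled and amplified from a template-switching oligo, a 3′ tag library in which unique molecular identifiers mark molecules. The deposited table holds counts of unique molecules per gene. Per the file headers, the labels and the study's methods, the authors aligned reads with STAR to GRCm38 with added human NRAS and MET sequences and counted them with featureCounts 1.6.4 (forward strand, mapping quality minimum 10). Reads shared by near-identical genes are lost or split by that step.

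The filter kept genes that reached 0.5 CPM in 2 or more of the 24 libraries (19381 of 53467, 19331 without SB/AKT/NRas + saline replicate 1). Counts were fitted with edgeR 4.0.16 (R 4.3.3, TMM scaling, quasi-likelihood test, 1 mean for each of 6 groups, Benjamini-Hochberg adjustment over all genes), two-sided. A gene was called at an adjusted p under 0.05 with a log2 fold change beyond 1 in size. The values given as SE were derived from the test. Each is the size of the log2 fold change divided by the square root of its F statistic. limma-voom (limma 3.58.1) and DESeq2 1.42.0 were alternatives, as were other scalings and filters, a robust dispersion, a fit of the compared groups alone, a replicate block and leaving out each liver. Each library is a separate mouse per the labels. The test was tried on simulated counts, with changed genes at a mean of at least 5 CPM. At an adjusted p under 0.05 it recovered 93% of 4-fold and 38% of 2-fold changes with all livers. Without NRas liver 1 it recovered 93% and 35%. A list with 0 calls can therefore hold changes of about 2-fold. Pooled ratios have exact binomial intervals (95%) that cover counting error only. Groups came from the sample titles. Plots used matplotlib 3.10.9.

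The comparison, the gene lists (37 of pathways, 15 of cell types, 1078 of 1083 members matched) and the liver left out were chosen with earlier results of these data known. Genes named are the human transcripts and their mouse forms, all calls with all livers, the 12 largest increases and 12 largest decreases without NRas liver 1 among calls with a mean of at least 5 CPM and no overlap, up to 5 members of a list by p, and calls of the saline-TAA difference. Of the calls with all livers, 1 gene is not reported here. Any other gene named was chosen after its values were seen.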

Additional observations from a re-analysis of the deposited data

Results flagged for a closer look

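Some NRas + saline livers stood far from the other 3 of their group for a gene, by Dixon's criterion for groups of 4. This held for 8 of 105 named genes. The criterion was applied to CPM, and many of these genes were chosen for their values in the same livers, so no chance rate is set beside that count. In 5 the distant liver was NRas liver 3: Sox9 at 167 CPM, Cxcl13 at 160.8 CPM, Psat1 at 38.9 CPM, Phgdh at 15.9 CPM and Bex1 at 15.1 CPM. In the other 3 it was NRas liver 1: Cyp7b1 at 240.5 CPM, Hsd3b5 at 173 CPM and Abca8a at 23.7 CPM. In each case the distant liver was the highest, and in 0 cases the lowest. NRas liver 3 had the most human NRAS of the 4 and NRas liver 1 the least, and the part of that level in these values was not tested.

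The contrast of NRas against c-Met livers differed between saline and TAA livers for 3 genes by the interaction test (edgeR). The log2 difference of the contrasts, saline minus TAA, was 5.22 for Gpc3, -3.34 for Cidea and -2.79 for Ighm.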

How the results depend on the processing

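With all livers, 26 transcripts were called. DESeq2 called 64, no filter 300, filterByExpr 7, library size scaling 6, limma-voom 1, a fit of the compared groups alone 1 and a robust dispersion 0. Leaving out each liver gave 0 to 284. Without NRas liver 1 the 284 calls became 750 with no filter, 512 with library size scaling and 473 with the compared groups alone, and 54 to 423 when another liver was left out. Of the 90 named genes among these calls, limma-voom kept 68, a robust dispersion 56, and leaving out a further liver 32 to 85, with 0 turning sign. In TAA livers the 2 calls became 1 with DESeq2 size factors, filterByExpr, library size scaling or a robust dispersion, 4 with limma-voom, 38 with no filter and 7 with the compared groups alone, and 1 to 2 when a liver was left out. For the saline-TAA difference the 3 calls became 9 with DESeq2, 90 with no filter, 1 with limma-voom, and 0 with filterByExpr (697 at an unadjusted p under 0.05), library size scaling (1100), the compared groups alone (1079) or a robust dispersion (1043), and 0 to 21 when a liver was left out. Apart from the replicate block, given next, other settings changed counts by less than 1.5 times. The cause was not tested.

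Replicate numbers did not pair the livers (correlations of same-numbered deviations 0.144, 0.0964 and 0.016), and c-Met liver 2 correlated best with NRas liver 3. A replicate block gave 13 calls with all livers, 267 without NRas liver 1, 2 in TAA livers and 3 for the difference. Library size scaling put mouse Met at 0.11 (all livers) and 0.14 (without NRas liver 1), the other sign.

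Leaving out a liver moved the log2 difference of mouse Nras between -0.117 and 0.37 with all livers and between -0.0646 and 0.42 without NRas liver 1, and that of mouse Met between -0.23 and 0.14 and between -0.32 and 0.051, so neither has a direction. With all livers Cyp7b1 ranged from -1.77 to 0.0048 and Hsd3b5 from -4.36 to 0.48, lowest without NRas liver 1. With 2197933 to 2998476 counted molecules a liver, genes at 0 in a group give lower bounds alone.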

Other observations

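Imprinted RNAs were looked at after their values had been seen, so the following is a description. Meg3, Rian and Mirg are non-coding RNAs transcribed from the maternal copy of the Dlk1-Dio3 region on chromosome 12, a cluster that is active in fetal tissues. Meg3 (chromosome 12, 109541001 to 109571726) had 0.879, 29.6, 82.4 and 58.6 CPM in NRas livers 1 to 4, against 1.39, 0.342 and 1.5 CPM in c-Met livers 1 to 3, and 0.401 to 2.57 CPM in the SB livers. Rian had 0, 2.78, 13.9 and 12.04 CPM in NRas livers 1 to 4, against 0, 0 and 0.375 CPM in c-Met livers 1 to 3, and Mirg had 0, 1.39, 3.69 and 2.604 CPM in the NRas livers and 0 in the c-Met livers. In all 3, NRas livers 2 to 4 were above every c-Met liver and NRas liver 1 was not. Of 22 imprinted genes looked up 17 were tested, and 1 was called with all livers (Meg3, adjusted p = 0.0221 in edgeR), beside 0.134% of all transcripts. Without NRas liver 1, 5 were called, the others being Rian, Mirg, H19 and Mest, beside 1.47% of all transcripts. Under the same choice 7 were higher and 1 lower without overlap, beside 9.33% and 7.64% of all transcripts. Grb10 and Kcnq1ot1 were higher in this way without a call, and Plagl1 was lower, with at most 3 counts in any of the 7 livers. Among the rest, Peg3 had 15.4, 13.6, 5.11 and 11.7 CPM in the NRas livers and 12.97, 6.49 and 8.62 CPM in the c-Met livers and Cdkn1c had 1.32, 2.09, 3.69 and 3.25 CPM in the NRas livers and 2.78, 2.73 and 4.499 CPM in the c-Met livers, overlapping levels. In TAA livers Meg3 had 17.6 to 36.8 CPM with NRas and 6.91 to 28.5 CPM with c-Met.

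Other single genes called without NRas liver 1 were also chosen after the values were seen, and they make up no list. Cxcl5, a CXCR2 ligand, had 0, 3.13, 8.52 and 7.49 CPM in the NRas livers and 0, 0 and 0.75 CPM in the c-Met livers (adjusted p = 0.00937). Il33, an alarmin cytokine, had 2.198, 10.4, 23.3 and 21.1 CPM in the NRas livers and 0.926, 6.15 and 1.5 CPM in the c-Met livers (log2 fold change 2.59 ± 0.46 (SE), adjusted p = 0.00288, without NRas liver 1). Apela, a ligand of the apelin receptor, had 0.44, 8.003, 9.94 and 11.4 CPM in the NRas livers and 0.926, 0.683 and 0.375 CPM in the c-Met livers (log2 fold change 3.83 ± 0.59 (SE), adjusted p = 0.000884). Ctgf, encoding connective tissue growth factor, had 0.44, 11.5, 29.3 and 6.51 CPM in the NRas livers and 1.39, 1.71 and 0.75 CPM in the c-Met livers (log2 fold change 3.58 ± 0.79 (SE), adjusted p = 0.0162), and Ankrd1, an ankyrin repeat protein, had 0, 8.699, 51.4 and 3.58 CPM in the NRas livers and 0.463, 0.683 and 0 CPM in the c-Met livers (adjusted p = 0.00493). In these 5 genes NRas livers 2 to 4 were above every c-Met liver. Among genes that fell without NRas liver 1, Cxcl12, a chemokine that retains CXCR4-bearing cells, had 127, 68.2, 43.5 and 83.3 CPM in the NRas livers and 179, 121 and 152 CPM in the c-Met livers (log2 fold change -1.22 ± 0.24 (SE), adjusted p = 0.00731), and Leap2, a hepatic antagonist of the ghrelin receptor, had 331, 157, 104 and 111 CPM in the NRas livers and 308, 252 and 263 CPM in the c-Met livers (log2 fold change -1.16 ± 0.29 (SE), adjusted p = 0.0386). For both, NRas livers 2 to 4 were below every c-Met liver.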
